A study of Mus musculus with 50 samples.

Results

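The regions described here are sites of antibody-enriched RNA in the 3' untranslated region (3' UTR) that lie more than 50 nt from the nearest copy of a consensus motif. They were chosen from the authors' table of 32009 m6A peaks by its transcript part and its motif distance alone, so no score, p-value or replicate call entered the choice. Of the 5550 peaks that the table places in the 3' UTR, 966 qualified (17.4%), which is 3.02% of all peaks, and all 966 had both scores and a motif distance. They lay on 858 of the 14219 transcripts with a peak. The other 4584 peaks of the 3' UTR lay within 50 nt of the motif and serve below as the closest comparison; the 2 sets are called far and near.

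The series held 50 samples, of which 12 were m6A-seq libraries from mouse B cells stimulated with LPS overnight; LPS, from the bacterial outer membrane, activates B cells. These formed 4 groups of 3 replicates: immunoprecipitated RNA (IP) and Input RNA from AIDcre Mettl3-flox/+ cells, labelled Ctrl, and from AIDcre Mettl3-flox/flox cells, labelled cKO. Both genotypes carried AIDcre, a Cre recombinase tied to expression of AID, an enzyme that B cells switch on during activation. The loss of METTL3 in the flox/flox cells was not measured here, and because bulk RNA was used, fewer methylated cells and less methylation per cell cannot be told apart. The strain field of these 12 samples gives 12 different names, from C57BL/7 to C57BL/18, against C57BL/6 for the 38 germinal center expression samples, which were not analysed here.

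N6-methyladenosine (m6A) is a methyl group on adenosines inside messenger RNA. METTL3, paired with METTL14, adds it to adenosines within a short consensus known as DRACH, and the mark is known to be dense around stop codons and in the 3' UTR. Proteins of the YTH family, among them YTHDF2, bind the mark and shorten the life of the message, whereas IGF2BP proteins are known to stabilise their targets. A typical m6A peak is centred on or close to a consensus copy. The table does not spell its motif out, and it holds no sequence. No genome of the build that its positions follow was used here, so no peak sequence is printed.

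Each peak had 1 score in a test arm and 1 in an arm that the table calls control, pooled over replicates and given in 2 versions. The table names no genotype for either arm. Peaks of the authors' METTL3-dependent list score higher in the test arm, which is therefore taken to be flox/+; the control arm, taken to be flox/flox, is called the comparator arm. Every direction below rests on that assignment. The sources used here do not give the formula behind the scores, so values are in score units. Read depth is unknown, and the table has no replicate spread to set beside a peak. Peaks are not replicates of a genotype, so differences between sets of peaks were not tested. Intervals on shares are exact Clopper-Pearson 95% intervals, which cover counting error and treat peaks of 1 transcript as independent.

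The far peaks were far by a moderate margin. Their median distance to the motif was 80.5 nt (quartiles 62.0 to 118), and the farthest lay 641 nt away, against a median of 11.0 nt (quartiles 4 and 23) for near peaks. The sign of the distance could be read from the table itself. Taking it as peak position minus motif position left 0 contradictions among 1256 pairs of neighbouring 3' UTR peaks closer than 300 nt, whereas the opposite sign gave 52. On that reading 470 far peaks lay downstream of their motif and 496 upstream, and no motif copy was the nearest one for more than 1 peak of a transcript. The far peaks began 554 nt into the transcript at the earliest, with a median position of 2756 nt (1976 to 4077). Near peaks had a similar median position of 2670 nt (1843 to 3951).

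Fewer far peaks than near peaks were in the METTL3-dependent list. It held 207 of the 966 far peaks (21.4%, 18.9% to 24.2%) and 1854 of the 4584 near peaks (40.4%, 39.0% to 41.9%). Over all peaks together, 28.1% of peaks were listed, so the far peaks sat below that background and the near peaks above it. The list follows 1 rule in every peak of the table: an unadjusted p under 0.1 and a higher test arm, each on either score version. With both required on the same version, 199 far peaks (20.6%) met the rule, beside 26.7% of all peaks. In the other direction on the same version, 42 far peaks were higher in the comparator arm (4.35%, 3.15% to 5.83%), against 77 near peaks (1.68%, 1.33% to 2.09%) and 8.59% of all peaks. That gave 4.74 far peaks higher in the test arm for each one higher in the comparator arm, 23.7 for near peaks and 3.11 over the table.

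An unadjusted p under 0.05 was reached by 69 far peaks (7.14%) on the first score version, beside 11.5% of all peaks; 2 far peaks have no p on that version. The second version had 93 such far peaks (9.63%), beside 14.9% of all peaks. With Benjamini-Hochberg adjustment of the authors' p-values over the whole table, 0 peaks passed 0.05 on either version. The smallest adjusted values among far peaks were 0.351 and 0.0516. Membership of the list is thus a count of the authors' calls and not of peaks that passed correction. No other tool could be run on the pooled scores.

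Scores of the far peaks were lower than those of near peaks in both arms, and more so in the test arm. The median first-version score of far peaks was 1.69 in the test arm (quartiles 1.06 to 2.35) and 1.39 in the comparator arm (0.77 to 1.98). Near peaks had medians of 2.16 (1.57 to 2.86) and 1.60 (0.92 to 2.27). The median difference per peak, test minus comparator, was 0.37 for far peaks (-0.30 to 0.91), 0.60 for near peaks (0.09 to 1.11) and 0.25 over all peaks (-0.31 to 0.83). The 3 distributions overlapped over most of their width, and the far median lay between the near median and that of the table as a whole. On the negative side the far peaks lay close to the table as a whole, and which share was larger changed with the cutoff. At or below -1 on the first version lay 6.63% of far peaks, 6.42% of all peaks and 2.90% of near peaks. At or below -0.75 these shares were 12.2%, 11.4% and 4.71%, and at or below -0.25 they were 26.5%, 27.0% and 13.3%. On the second version the shares at or below -1 were 4.97%, 3.64% and 1.68%, and at or below -0.4 they were 14.3%, 14.5% and 5.50%.

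**Figure D1:**
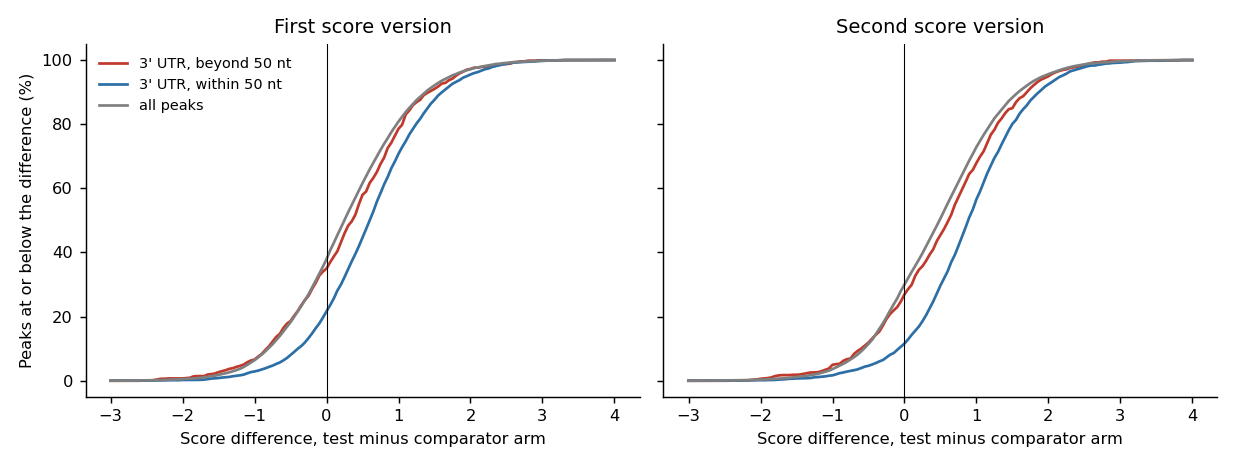
Cumulative share of peaks (vertical axis, percent) at or below a given score difference between the test and the comparator arm (horizontal axis, score units), for each score version. The line of the 966 far 3' UTR peaks lies left of that of the 4584 near peaks over most of the range. Near the median it lies right of that of all 32009 peaks. On the negative side these lines run close together, at 12.2% for far peaks and 11.4% for all peaks at -0.75 on the first version.

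The second score version gave the same order of the medians. Far peaks had median scores of 2.44 and 1.87 in the test and comparator arms, near peaks 3.34 and 2.35, and the median differences were 0.61 and 0.89, beside 0.49 over all peaks. The test arm scored higher in 626 far peaks by the first version (64.8%, 61.7% to 67.8%) and in 706 by the second (73.1%, 70.2% to 75.9%). For near peaks these shares were 78.1% and 88.4%, and over all peaks 61.7% and 70.0%.

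The listed share fell with distance from the motif without a step at the 50 nt that defines the set. It was 47.2% (44.5% to 49.9%) in 3' UTR peaks up to 5 nt from the motif, 40.1% up to 20 nt and 33.8% up to 50 nt. Among far peaks it was 25.5% (21.4% to 29.9%, 428 peaks) up to 75 nt, 23.3% (202 peaks) up to 100 nt and 18.9% (206 peaks) up to 150 nt. Beyond that it was 9.46% (3.89% to 18.5%, 74 peaks) up to 200 nt and 8.93% (2.96% to 19.6%, 56 peaks) farther out. The intervals of the first and last of these far bins did not overlap.

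The score difference followed the same course. Its median was 0.63 up to 5 nt and 0.53 between 20 and 50 nt, then 0.44 up to 75 nt, 0.41 up to 100 nt and 0.33 up to 150 nt. From 150 to 200 nt it was -0.12 (quartiles -0.69 to 0.76), and beyond 200 nt 0.14 (-0.35 to 0.66). Peaks on either side of the threshold were alike in this respect: of those 46 to 50 nt away 32 of 133 were listed (24.1%) with a median difference of 0.43, and of those 51 to 55 nt away 36 of 120 (30%) with 0.46.

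**Figure D2:**
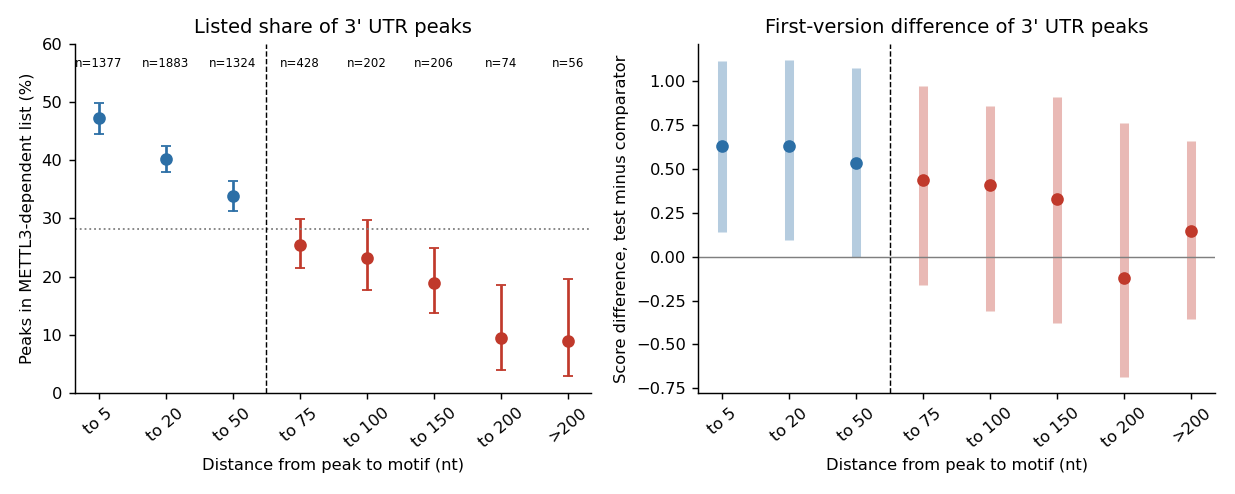
Share of 3' UTR peaks in the METTL3-dependent list (left, percent, with exact 95% intervals) and first-version score difference (right, score units; points are medians, bars run between quartiles) by distance to the motif in nt, with far peaks in red, near peaks in blue and the dashed line at 50 nt. The listed share goes from 47.2% in the nearest bin to 8.93% in the farthest; the dotted line marks the 28.1% of all peaks.

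Far peaks upstream and downstream of the motif had overlapping values. Of the 496 upstream peaks 112 were listed (22.6%, 19.0% to 26.5%), and of the 470 downstream peaks 95 were (20.2%, 16.7% to 24.1%). The median differences were 0.41 upstream and 0.27 downstream by the first version, and 0.63 and 0.59 by the second. Beyond 150 nt the listed counts were 4 of 57 upstream and 8 of 73 downstream. Near peaks showed 39.9% upstream and 40% downstream, and the 185 peaks at distance 0 had the higher share of 52.4% (45.0% to 59.8%).

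The table carries a second peak position, and it moved some peaks relative to the motif. Both positions were equal in 366 far peaks (37.9%), the median shift was 5 nt, and the largest was 69 nt. Measured from the second position, 93 far peaks (9.63%) lay within 50 nt of the same motif copy. Leaving these out kept the listed share at 21.2% (18.5% to 24.1%) of the remaining 873.

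Replicate calls set far and near peaks apart in another way. For each arm the table gives a whole number from 0 to 3, taken to count the replicates in which the peak was called. A call in 2 or all 3 replicates of either arm was recorded for 111 far peaks (11.5%, 9.55% to 13.7%), against 1360 near peaks (29.7%, 28.3% to 31.0%) and 36.2% of all peaks. Calls in 1 replicate of 1 arm alone made up most of the far set: 296 peaks had a single test call and 326 a single comparator call. A further 200 far peaks (20.7%) had no call in any replicate, against 18.0% of near peaks and 15.9% of all peaks.

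The balance of calls between arms also differed from that of the scores. Test calls outnumbered comparator calls in 354 far peaks (36.6%, 33.6% to 39.8%) and the reverse held in 361 (37.4%, 34.3% to 40.5%). The shares were close, but their intervals count peaks and not the 3 replicates of an arm. A difference between the arms was not tested. Over all peaks these shares were 38% and 29.3%, so the far share with more test calls was near that background and the far share with more comparator calls was above it. Near peaks leaned to the test arm, with 49.0% and 22.6%, as did far stop-codon peaks, with 42.0% and 32.4%. Far coding-sequence peaks had 33.7% and 37.4%. Calls in all 3 test and 0 comparator replicates were found in 3 far peaks (0.311%) and 125 near peaks (2.73%), beside 1.95% of all peaks. The reverse pattern was found in 4 far peaks (0.414%) and 7 near peaks (0.153%), beside 0.918% of all peaks. The median score difference was 0.83 in the 354 far peaks with more test calls, of which 30.8% were listed. In the 361 with more comparator calls, of which 13.3% were listed, it was -0.23 by the first version and 0.25 by the second. Calls and scores come from the same libraries, so one is no support for the other.

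**Figure D3:**
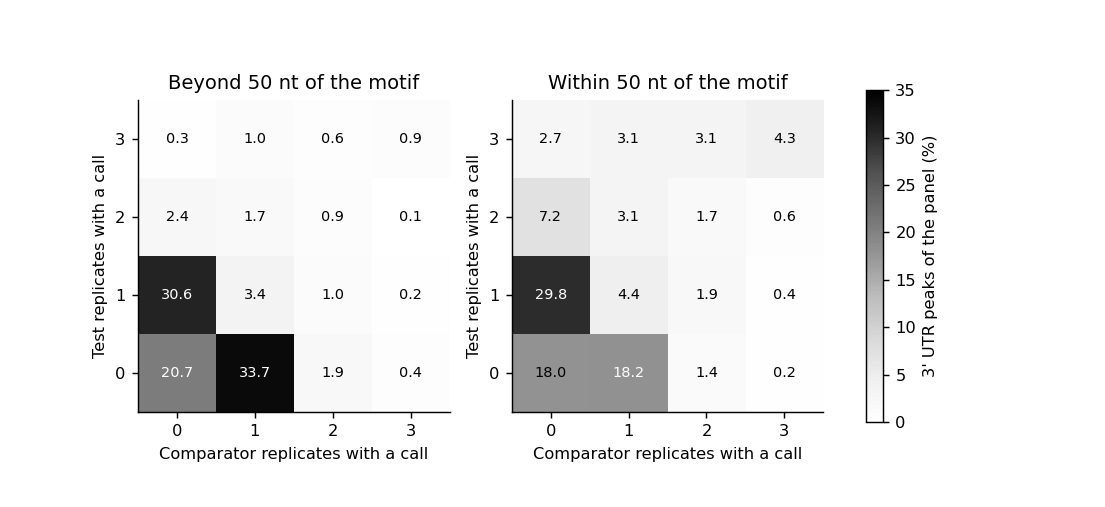
Share of 3' UTR peaks (percent of each panel, grey scale) by the number of comparator replicates (horizontal axis) and test replicates (vertical axis) with a call, for far peaks (left) and near peaks (right). Among far peaks single calls are spread evenly, 30.6% in the test arm alone and 33.7% in the comparator arm alone, while among near peaks these cells hold 29.8% and 18.2%.

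Among far peaks with a replicated call the listed share was 26.1% (18.2% to 35.3%, 29 of 111), against 53.8% (51.1% to 56.5%) of the 1360 near peaks with one. A replicated call may come from either arm, whereas listing needs a higher test arm. It came from the test arm in 69.4% of these far peaks and 87.2% of these near peaks. The part of this difference in the gap was not tested. Far peaks without any call were listed in 43 of 200 cases (21.5%, 16.0% to 27.8%). The 21.4% of the whole far set lies inside both of these far intervals.

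Peak strength moved with the motif distance, so listed shares were also set side by side at like first-version strength. Strength was the first-version score averaged over the arms, and all 3' UTR peaks were divided into 4 strength bins of equal size. The lowest bin held 349 far peaks and the highest 148. From the lowest to the highest bin the listed share of far peaks went from 13.2% (9.81% to 17.2%) through 20% and 28.7% to 33.1% (25.6% to 41.3%). Near peaks had 26.8%, 42.7%, 41.4% and 49.0% in the same bins. The far share was the lower one in all 4 bins, and the intervals of far and near peaks did not overlap in any of them. In the highest bin the median first-version test-arm scores were 3.17 for far and 3.38 for near peaks, and the median differences 0.45 and 0.64. The bins did not match the second version. From the lowest to the highest bin its median test-arm scores were 1.81, 2.57, 2.88 and 3.54 for far peaks. For near peaks they were 2.03, 2.97, 3.55 and 4.10. The list takes p and direction from either version, and the part of second-version strength in the gap was not tested.

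**Figure D4:**
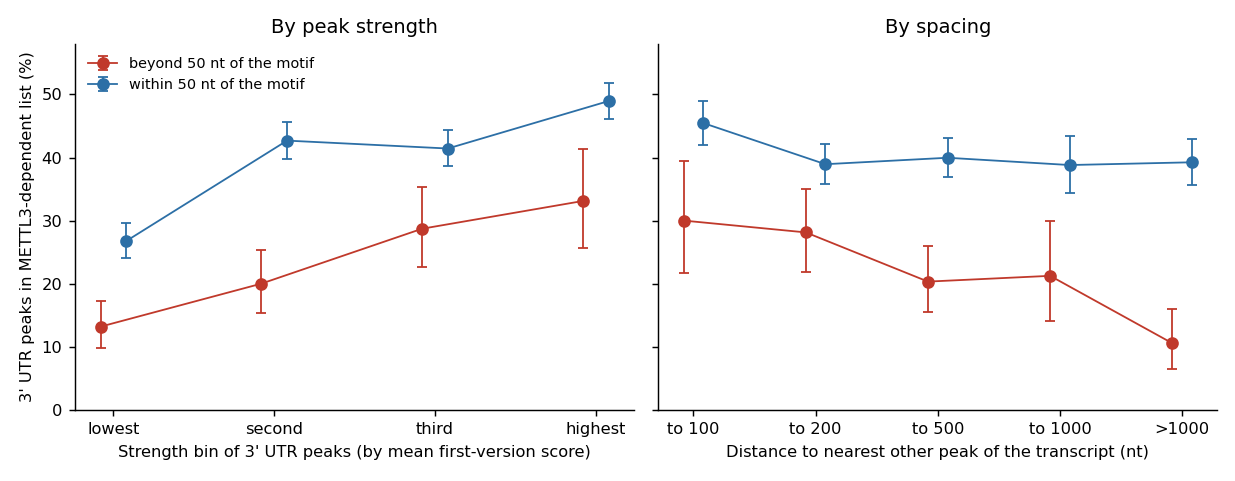
Share of 3' UTR peaks in the METTL3-dependent list (vertical axis, percent, with exact 95% intervals) by strength bin (left) and by distance in nt to the nearest other peak of the transcript (right). The far peaks (red) lie below the near peaks (blue) in every bin of first-version strength, and fall from 30% to 10.6% with spacing while near peaks go from 45.5% to 39.2%.

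Spacing to other peaks separated the far set further. The 110 far peaks up to 100 nt from another peak of their transcript were listed in 30% of cases (21.6% to 39.5%), and the 192 peaks up to 200 nt in 28.1%. The share was 20.3% up to 500 nt and 21.2% up to 1000 nt, and fell to 10.6% (6.48% to 16.0%, 19 of 180) beyond 1000 nt. Test-arm scores went the same way, with a median of 2.29 in the closest and 1.25 in the most distant of these bins. Replicated calls did not. From the closest to the most distant bin they were recorded for 10.9%, 7.29%, 12.6%, 8.85% and 18.9% of far peaks. The median motif distance of these far peaks also differed, at 65.5 nt in the closest and 85.5 nt in the most distant bin. The part of scores or motif distance in the trend was not tested. Near peaks changed less, from 45.5% (42.1% to 48.9%) to 39.2% (35.7% to 42.9%), while their median test-arm score went from 2.41 to 1.87. The 125 far peaks that were the only peak of their transcript have no spacing and stood at 21.6% (14.7% to 29.8%). In those far from the motif and from other peaks, more than 1000 nt away, the median difference was 0.11, and for near peaks at that spacing 0.58.

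The far peaks were seldom the leading peak of their message. Among the 841 on transcripts with several peaks, 79 (9.39%) were the strongest and 402 (47.8%) the weakest. The 3984 near peaks on such transcripts were the strongest in 21.4% and the weakest in 32.5% of cases, with the same median of 4 peaks per transcript. Of the 858 transcripts with a far peak, 434 (50.6%) also carried a near 3' UTR peak and 449 (52.3%) a peak around the stop codon. A coding-sequence peak was present on 294 (34.3%), a transcript-start peak on 360 (42.0%) and a 5' UTR peak on 59 (6.88%). For 128 transcripts (14.9%) the far peaks were the only peaks in the table. Of their 131 peaks, 28 were listed (21.4%, 14.7% to 29.4%), a share equal to that of the whole far set, and 7.63% had a replicated call.

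Far and near peaks could also be compared within the same message. In the 434 transcripts with both kinds of 3' UTR peak, the mean difference of the far peaks was the lower one in 247 (56.9%, 52.1% to 61.6%). The median of far minus near was -0.12 (quartiles -0.62 to 0.30) by the first version and -0.14 by the second. On these transcripts the medians of the per-transcript mean differences were 0.41 for far and 0.49 for near peaks. The 0.37 and 0.60 of all far and all near peaks are medians over single peaks, so the gaps are not like for like. Against the stop-codon peaks of the same transcript the far peaks were lower in 286 of 449 transcripts (63.7%, 59.1% to 68.2%), with a median gap of -0.31.

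**Figure D5:**
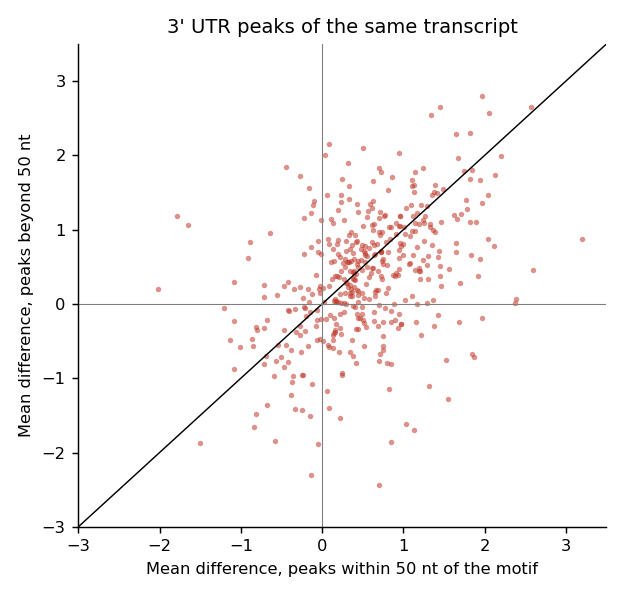
Mean first-version score difference of the far 3' UTR peaks (vertical axis, score units) against that of the near 3' UTR peaks (horizontal axis) in the 434 transcripts with both, 1 point per transcript, with the line of equal values. Points lie on both sides of the line, 247 of them below it.

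Listing of a far peak went together with listing of a near peak on the same message. Of the 208 transcripts with a listed near 3' UTR peak, 36.5% (30% to 43.5%) also had a listed far peak, against 18.1% (13.3% to 23.8%) of the 226 transcripts whose near peaks were not listed. Listed peaks of both kinds were found in 76 transcripts, of the near kind alone in 132, of the far kind alone in 41 and of neither in 185. With stop-codon peaks the shares were closer, 24.8% (19.3% to 30.9%) of 226 transcripts with a listed stop-codon peak and 21.1% (15.9% to 27.0%) of 223 without one. All of these calls come from the same libraries and from the same message. Transcripts with more peaks of a kind also have more chances of a listed one, and the part of peak number was not tested.

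Far peaks were also split by the presence of a stop-codon peak on their message. The 522 far peaks on transcripts with a stop-codon peak were listed in 20.5% (17.1% to 24.2%) and the 444 others in 22.5% (18.7% to 26.7%). More comparator than test calls were recorded in 42.1% (37.9% to 46.5%) of the former and 31.8% (27.4% to 36.3%) of the latter. The median score differences were 0.25 and 0.44.

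Most transcripts, 767 (89.4%), had 1 far peak, 77 had 2, 11 had 3 and 3 had 4. On the 91 transcripts with several far peaks, none was listed in 64, some in 25 and all in 2. The 14 transcripts with 3 or 4 held 45 far peaks, 9 of them listed, and in 8 of the 14 the differences had both signs.

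Far peaks of other transcript parts lay on both sides of these. Around the stop codon 923 peaks lay beyond 50 nt of the motif (13.6% of that part), and 345 were listed (37.4%, 34.2% to 40.6%), with a median difference of 0.57 and a replicated call in 19.6%. In the coding sequence 2419 peaks did (20.8%), and 435 were listed (18.0%, 16.5% to 19.6%), with a median difference of 0.13 and a replicated call in 13.8%. The listed share of far 3' UTR peaks, 21.4%, thus lay nearer to that of far coding-sequence peaks, although near 3' UTR peaks (40.4%) stood closer to near stop-codon peaks (48.3%) than to near coding-sequence peaks (28.2%). Whether the effect of distance differs between the parts was not tested.

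The 42 far peaks that were higher in the comparator arm by the same-version rule are described without a test, since their scores chose them. Their median scores were 1.07 in the test and 2.20 in the comparator arm, and their median motif distance was 101 nt, against 80.5 nt for the whole far set. Comparator calls outnumbered test calls in 36 of the 42. The 207 listed far peaks, chosen in the same way, had a median test-arm score of 2.28 and a median distance of 74.0 nt. These sets overlap: 9 of the 42 (21.4%) were also listed, as the list takes p and direction from either version. Of the 42, 1 also met the same-version rule with the test arm higher.

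By position along the transcript, the listed share of far peaks ran between 17.9% and 25.1% in 5 bins from the first 1000 nt to beyond 5000 nt, with overlapping intervals. By chromosome it ran from 12.7% (9 of 71 on chromosome 1) to 40.9% (26.3% to 56.8%, 18 of 44 on chromosome 8). It was lower than the near share in 19 of the 20 chromosomes, chromosome 8 being the exception with 39.6% of near peaks listed. The intervals of chromosomes 8, 11 and 19 lay above the 21.4% of the whole far set, and no chromosome's interval lay below it.

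Single peaks are given by transcript identifier, since none of the 14219 identifiers matched the gene name tables used here, and their positions are taken as mouse build mm9. They are the 2 largest and the 2 most negative first-version differences among the 111 far peaks with a replicated call. Calls in the arm with the higher score are thus in part a result of this choice. In the authors' deposited table the largest was on uc007rjr.1, chromosome 13 at position 91075663, 72 nt downstream of the motif, with scores of 2.92 in the test and 0.00 in the comparator arm. The comparator score is exactly 0, as in some other far peaks, and what such a value stands for is not known. By the second version this peak scored 2.80 and 0.19 in the authors' deposited table. The authors' deposited table gives it unadjusted p-values of 0.0584 and 0.0128 on the 2 score versions, and calls in 2 test and 0 comparator replicates. It was listed, it was the only peak of its transcript, and from the table's second position it lay 75 nt from the motif.

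The next was on uc007pct.2, chromosome 12 at position 112531570, 75 nt upstream of the motif, with scores of 2.74 and 0.19 in the authors' deposited table. It was called in all 3 test replicates and 0 comparator replicates. Its unadjusted p in the authors' deposited table was 0.000979 by the first version but 0.132 by the second. From the second position it lay 72 nt from the motif. This transcript carried 8 peaks, and every one of them scored higher in the test arm on both versions in the authors' deposited table. Several were not listed, among them its stop-codon peak, called in 0 test replicates and 1 comparator replicate. Over all peaks the test arm scored higher in 61.7% by the first version and 70.0% by the second.

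Both most negative peaks stood on messages whose stop-codon peak scored higher in the test arm. On the first version that held for 82.3% of all stop-codon peaks within 50 nt of the motif, so it does not set these messages apart. On uc009ddf.2, chromosome 6 at position 108057412, a peak 59 nt upstream of the motif had scores of 0.07 and 2.27 and unadjusted p-values of 0.0129 and 0.0743 in the authors' deposited table. From the table's second position that peak lay 24 nt from the same motif copy, so it would not be a far peak by that column. The stop-codon peak of that transcript had a difference of 0.41 in the authors' deposited table and was not listed. On uc007zgy.1, chromosome 16 at position 44161518, a peak 113 nt downstream of the motif had scores of 0.46 and 1.92 and p-values of 0.0706 and 0.147 in the authors' deposited table, beside 0.78 for its stop-codon peak. From its second position that far peak lay 94 nt from the motif, and the stop-codon peak of the transcript was listed. Each of these 2 far peaks was called in 2 comparator and 0 test replicates, which is no separate trait, since a replicated call was needed to be chosen. The transcript-start peaks of their messages were also negative, at -1.37 and -0.54 in the authors' deposited table.

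A further peak stood out and was chosen after its values were seen. At chromosome 17, position 66190661, a far peak 51 nt downstream of the motif had the smallest second-version p of all 32009 peaks in the authors' deposited table, 1.61e-06 unadjusted, which gives the adjusted value of 0.0516 quoted above. Its second-version scores in the authors' deposited table were 3.89 in the test and 2.31 in the comparator arm, and it was called in 3 test replicates and 1 comparator replicate. On the first version its p was 0.0457 in the authors' deposited table. It lay just past the 50 nt threshold, and from the table's second position it was 97 nt from the same motif copy.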

How the data were processed

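A pair of tables by the authors was used, all m6A peaks called de novo and the shorter METTL3-dependent list, both from 12 m6A-seq libraries in 4 groups of 3 taken from the sample labels. Per the labels' protocols, RNA was selected for poly(A), barcoded and immunoprecipitated with an antibody to m6A. The submitters' processing notes name cutadapt, STAR, HTSeq, SAMtools 1.3.1 and DESeq2 and the builds mm10 and mm9, with no roles; the sources used here do not name the peak caller or the test. Per the file headers, each peak score was deposited as 1 pooled value per arm in 2 versions, each with 1 unadjusted p-value from the authors. Nothing in the labels says that replicates are different animals, so the spread behind those p-values may be technical.

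All 9005 listed peaks were found in the full table by position and transcript. The 8 peaks with no motif distance were outside the 3' UTR. Positions of 164 peaks, 9 of them far 3' UTR peaks, ran past the ends of 7 GRCm38 chromosomes, so they are not on mm10 and were taken as mm9; no position was converted. The planned fit per library was not made because no value per library is in the table, and the planned gene lists could not be used without gene names. Far peaks, lists and comparisons were chosen with earlier results of these data known. Single peaks are named by a rule of size, the 2 largest and 2 most negative differences among far peaks with a replicated call. Alternatives changed the distance threshold, the peaks kept, the p threshold and the score version. The calculations were tested on simulated data and ran in Python 3.11.15, with pandas 2.3.3 and numpy 2.4.6 for the tables, scipy 1.17.1 for intervals and matplotlib 3.10.9 for plots.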

Additional observations from a re-analysis of the deposited data

How the results depend on the processing

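Of 56 values under other settings, 29 stayed inside the 95% interval of the reported value (exact for shares, from order statistics for medians) and 27 did not. The other settings for the median score difference, the one value that could change sign, all left it above 0; the rest are shares. The far share of listed peaks stayed below the near share under all 14 settings run for both, by 11.4 to 27.7 percentage points. The listed share of far peaks was 18.2% with a threshold of 75 nt, 15.2% with 100 nt and 24.9% with 30 nt; that of near peaks was 38.6% with 100 nt and 42.4% with 30 nt. Among peaks scoring above the median of all peaks the shares were 31.8% and 47.1%, and among those with a replicated call 26.1% and 53.8%. The last pair gave the largest gap, but fewer far than near peaks passed that filter through the test arm (69.4% and 87.2%). A p under 0.05 in the list rule gave 12.2% and 26.5%, a p under 0.2 gave 37.2% and 57.8%, the first score version alone 10.7% and 22.0%, and the second alone 16.6% and 32.7%. The opposite rule, met by 5.69% of far peaks and 10.7% of all peaks, gave 8.04% with 100 nt, 3.11% at p under 0.05, 12.6% at p under 0.2, and 2.80% and 1.97% on the first and second version alone. Of the 55 far peaks that met the opposite rule, 22 were also listed. The median difference of far peaks was 0.22 with 100 nt, 0.26 with the strongest 3' UTR peak of each transcript, 0.45 above the median score and 0.61 on the second version. A call in all 3 replicates of an arm held for 3.62% of far peaks, by the stricter count. For changes that do not follow from a stricter or laxer rule the cause was not tested. Settings with p and direction on the same version and with both positions beyond 50 nt were chosen after seeing the data. No paired analysis was possible because the table pools the replicates of each arm, and leaving out single replicates was not run for the same reason. Depth is unknown and sets no limit that can be stated.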
